A study of Homo sapiens with 6 samples.

Results

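The 9 genes described here encode parts of the complement system and are followed within a table of 60662 genes. The cells were DU-145, an established line from a human prostate carcinoma. The genes were chosen by name, as table rows whose gene symbol is C1S, C1R, C1RL, C3, CFB, CFI, CD46, CD55 or CD59, and each symbol matched 1 row. The first 6 encode secreted, or produced, proteins and the last 3 encode inhibitors held on the cell membrane. All cells stably carried a hairpin RNA that doxycycline switches on and that targets MUC1, a transmembrane mucin gene. The DOX-positive group (3 libraries) received doxycycline for 7 days to induce the hairpin, and the DOX-negative group (3 libraries) received vehicle for 7 days. Both groups were then stimulated for 24 hours with 10 ng/ml of the cytokine interferon-gamma (IFN-gamma), so every value below comes from IFN-gamma-treated cells. Untreated cells and cells with a control hairpin were not analysed here, so the effects of doxycycline and of the hairpin cannot be told apart. The labels do not say whether the line was 1 clone or a pool.

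Complement is a cascade of plasma proteins that marks and lyses cells and microbes. In the classical pathway the proteases C1r and C1s are bound to C1q, and C1r activates C1s, which cleaves C4 and C2. In the alternative pathway factor B forms the C3 convertase with C3b. Host cells carry CD46, CD55 and CD59 to stop the cascade on their own surface, and factor I cleaves C3b and C4b with cofactors such as CD46. The liver makes most plasma complement, but many epithelial cells also transcribe these genes, several of which are inducible by IFN-gamma.

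Library totals were 105358357 to 150921436 reads in DOX-positive cells and 87739734 to 138844816 reads in DOX-negative cells. MUC1, the hairpin target, had 1.53, 1.31 and 1.32 CPM (counts scaled to library size) in DOX-positive libraries, against 20.4, 21.8 and 22.2 CPM in DOX-negative libraries, which goes with the labels. Of 24695 genes tested with edgeR, 56.5% passed an adjusted p of 0.05, so a call by itself sets no gene apart. Of these, 6825 were higher and 7132 lower in DOX-positive cells, or 4689 and 9579 when libraries were scaled by their size alone. The epithelial markers KRT8, KRT18, KRT19, EPCAM and CDH1 were all expressed, and all 5 rose. Their summed level was 620.2 to 639.8 RPKM (CPM per kilobase of gene length) in DOX-positive cells and 213.9 to 224.9 RPKM in DOX-negative cells. The part of that shift in the complement values was not tested. Hepatocyte markers summed to 14.7 to 15.8 RPKM in DOX-positive cells and 17.2 to 19.1 RPKM in DOX-negative cells. That sum was carried by SERPINA1, while ALB read 0.0206 CPM in DOX-positive cells and 0.140 CPM in DOX-negative cells.

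Promoter windows from RefSeq (GRCh38.p14, 250 bases before to 50 after an annotated start) were found for 7 of the 9 genes, 12 windows in all, and not for C1S and C3. They were searched on both strands for GAS, the motif known for IFN-gamma-activated transcription, written TTCNNNGAA, and for an ISRE-like motif bound by interferon regulatory factors, which is GAAA, any 2 bases and GAAA. The 4 windows below are shown because they hold a match, in capitals. A second CD59 window, which overlaps the one shown, holds the same GAS match.
CFB, chr6:31945845-31946144, plus strand: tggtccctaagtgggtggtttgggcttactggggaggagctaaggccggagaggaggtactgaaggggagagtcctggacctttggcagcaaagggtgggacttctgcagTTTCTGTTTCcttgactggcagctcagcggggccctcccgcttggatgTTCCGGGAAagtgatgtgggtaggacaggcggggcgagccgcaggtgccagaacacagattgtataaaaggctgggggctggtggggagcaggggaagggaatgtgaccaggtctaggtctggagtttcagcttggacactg
C1R, second annotated start, chr12:7091844-7092143, minus strand: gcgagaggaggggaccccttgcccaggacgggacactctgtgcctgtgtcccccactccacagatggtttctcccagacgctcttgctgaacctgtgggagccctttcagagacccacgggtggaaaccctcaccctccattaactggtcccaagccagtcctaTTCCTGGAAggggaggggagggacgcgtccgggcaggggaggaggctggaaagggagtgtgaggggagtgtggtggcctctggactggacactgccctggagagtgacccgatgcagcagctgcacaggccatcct
C1RL, chr12:7109165-7109464, minus strand: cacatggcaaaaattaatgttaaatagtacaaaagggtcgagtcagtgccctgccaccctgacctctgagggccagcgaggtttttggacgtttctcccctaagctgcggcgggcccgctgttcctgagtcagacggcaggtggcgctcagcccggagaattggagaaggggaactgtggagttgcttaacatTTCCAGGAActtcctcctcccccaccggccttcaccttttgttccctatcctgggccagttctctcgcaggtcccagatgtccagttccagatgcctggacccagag
CD59, first annotated start, chr11:33736430-33736729, minus strand: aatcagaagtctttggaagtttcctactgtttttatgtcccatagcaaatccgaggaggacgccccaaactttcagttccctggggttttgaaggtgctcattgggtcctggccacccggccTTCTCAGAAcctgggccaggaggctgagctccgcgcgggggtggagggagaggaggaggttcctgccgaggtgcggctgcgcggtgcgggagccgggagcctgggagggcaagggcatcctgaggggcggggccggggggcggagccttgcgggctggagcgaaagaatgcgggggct
With the start site counted as 0, the CFB window held an ISRE-like match on the minus strand at -140 and a GAS match at -92. The GAS match lay at -86 in C1R, at -57 in C1RL and at -128 in CD59. Of all 35116 windows of this length, 7.66% held GAS and 3.57% held the ISRE-like motif. Counted by gene, 9.38% of 27305 genes held GAS and 4.38% held the ISRE-like motif in at least 1 window. Genes with more windows have more room for a match, and CD59 had 4 windows and C1R had 2. Among the 7 genes with windows, GAS matches thus stood in front of an annotated start of 3 genes that fell and 1 that rose in the results below. The other genes with windows, CFI and CD46, which fell, and CD55, which rose, held no GAS match. For C1R the GAS match was in the window of the second start only, and the window of its first start held no match. Both starts of C1R lie within the annotated span of the gene. A match is only a run of letters, and none of these sites was assayed.

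All 6 produced components were lower in DOX-positive cells, and the membrane inhibitors were split, with CD55 and CD59 higher and CD46 lower. At an edgeR adjusted p under 0.05, 7 of the 9 genes fell and 2 rose, against 28.9% of all tested genes lower and 27.6% higher. Calls of at least 2-fold were made downward for 5 genes, all produced components, and upward for CD59, against 9.38% of all genes lower and 3.56% higher by that much. The CPM ranges of the 2 groups did not overlap for any of the 9 genes, and the same held for 62.4% of all genes tested, 29.8% with DOX-positive cells higher and 32.6% with DOX-positive cells lower. The median log2 fold change was -1.45 over the 9 genes, -1.73 over the produced components and 0.73 over the membrane inhibitors, against -0.04 over all genes. CFI reached the low-count filter in 1 DOX-positive and 3 DOX-negative libraries, so it was tested only because of its level in DOX-negative cells, and its call adds little to these counts. In bulk RNA, fewer cells expressing a gene and less RNA per cell cannot be told apart.

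**Figure D1:**
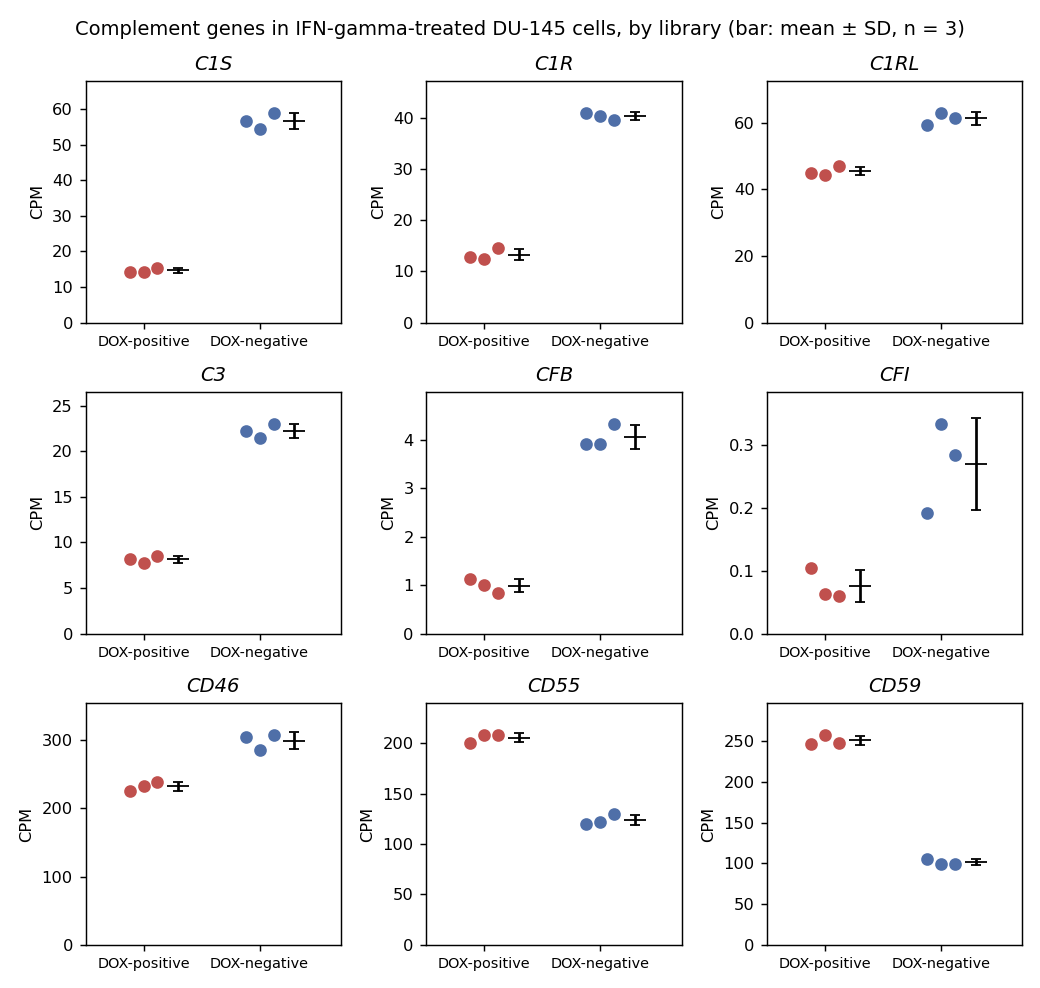
Each panel plots CPM on a linear axis from 0 for 1 gene, with 1 point per library, DOX-positive cells on the left and DOX-negative cells on the right, and the bar beside them is the mean ± SD (n = 3). The 2 groups are apart in every panel, with CD55 and CD59 higher and the other 7 genes lower in DOX-positive cells.

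C1S, C1R and the C1r-like gene C1RL fell unequally. C1S, the protease that cleaves C4 and C2, had 14.3, 14.3 and 15.3 CPM in DOX-positive libraries, against 56.6, 54.4 and 59.0 CPM in DOX-negative libraries. All 3 DOX-positive libraries lay far below the DOX-negative ones, a 3.87-fold fall (log2 fold change -1.95, SE 0.04, edgeR adjusted p = 1.74e-15). C1R, the protease that activates C1s, had 12.9, 12.3 and 14.5 CPM in DOX-positive libraries, against 41.0, 40.3 and 39.5 CPM in DOX-negative libraries. It fell 3.05-fold (log2 fold change -1.61, SE 0.05, edgeR adjusted p = 1.41e-13). C1RL, a C1r-like serine protease, had 45.1, 44.5 and 47.0 CPM in DOX-positive libraries, against 59.3, 63.1 and 61.6 CPM in DOX-negative libraries. Its groups did not overlap either, but the fall was only 1.35-fold (log2 fold change -0.43, SE 0.03, edgeR adjusted p = 1.56e-08).

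C1S (6988259 to 7071032, plus strand), C1R (7080199 to 7092607, minus strand) and C1RL (7089587 to 7109273, minus strand) lie side by side on chromosome 12 (GRCh38, GENCODE 29). The annotated spans of C1R and C1RL overlap on the same strand, so reads in the shared stretch could have been assigned to either or dropped. The C1S span overlaps EMG1, a ribosome biogenesis gene, and LPCAT3, a phospholipid acyltransferase. EMG1 had a log2 fold change of -0.25 and LPCAT3 one of 0.06. Of 22 protein-coding genes tested within 250 kb of the cluster, these 2 included, 12 fell, 4 of them at least 2-fold. A further 3 rose, 1 of them at least 2-fold. Over all tested genes 28.9% were lower and 27.6% higher, with 9.38% lower and 3.56% higher by at least 2-fold. The median of the 22 was -0.19 as a log2 fold change. Neighbours within 250 kb of the other members differed. Around CFB 14 of 38 fell and 10 rose, around C3 2 of 11 fell and 6 rose, and around CFI 1 of 9 fell and 5 rose. Around CD59 2 of 4 fell and 0 rose, and around CD55 and CD46 0 of 3 fell and 1 rose.

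C3 and factor B followed the C1 proteases downward. C3, the central component whose cleavage drives every pathway, had 8.19, 7.75 and 8.50 CPM in DOX-positive libraries, against 22.2, 21.5 and 23.0 CPM in DOX-negative libraries. All 3 DOX-positive values lay far below the lowest DOX-negative one, a 2.73-fold fall (log2 fold change -1.45, SE 0.05, edgeR adjusted p = 1.04e-12). CFB, factor B, had 1.13, 1.004 and 0.848 CPM in DOX-positive libraries, against 3.92, 3.93 and 4.34 CPM in DOX-negative libraries. It fell 4.07-fold (log2 fold change -2.03, SE 0.13, edgeR adjusted p = 1.25e-09), the largest fitted fold among the 9 genes but within its error of that of C1S, on counts of 84 to 145 reads in DOX-positive libraries and 390 to 576 reads in DOX-negative libraries. CFB (31945650 to 31952084, chromosome 6) overlaps the end of C2 and a C2-CFB read-through gene that had 0 reads. C2 itself fell too, with a log2 fold change of -0.52 (edgeR adjusted p = 0.0149).

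CFI, factor I, was barely transcribed. It had 11, 9 and 6 reads in DOX-positive libraries, against 19, 49 and 26 reads in DOX-negative libraries. In CPM these were 0.104, 0.0623 and 0.0606 in DOX-positive libraries, against 0.191, 0.334 and 0.284 in DOX-negative libraries. The groups did not overlap, but the spread within each was wide, and 3 reads in a library corresponded to 0.0204 to 0.0328 CPM. The fitted log2 fold change was -1.84 with an SE of 0.42 (edgeR adjusted p = 0.00131).

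The 3 membrane inhibitors did not move together. CD59, a lipid-anchored protein that blocks the membrane attack complex, had 246.7, 258.0 and 248.3 CPM in DOX-positive libraries, against 105.6, 99.7 and 99.7 CPM in DOX-negative libraries. All 3 DOX-positive libraries lay far above the highest DOX-negative one, a rise of 2.47-fold (log2 fold change 1.30, SE 0.04, edgeR adjusted p = 2.55e-14). CD55, a lipid-anchored protein that speeds the decay of C3 convertases, had 200.4, 208.2 and 208.0 CPM in DOX-positive libraries, against 119.3, 122.2 and 129.4 CPM in DOX-negative libraries. It rose 1.66-fold (log2 fold change 0.73, SE 0.04, edgeR adjusted p = 3.86e-11). CD46, a transmembrane cofactor for factor I, had 225.4, 232.6 and 239.1 CPM in DOX-positive libraries, against 304.7, 285.6 and 307.7 CPM in DOX-negative libraries. It fell 1.29-fold (log2 fold change -0.37, SE 0.04, edgeR adjusted p = 2.21e-07), and its groups did not overlap.

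CD55 (207321376 to 207386804) and CD46 (207752057 to 207795513) share a cluster of complement regulators on chromosome 1 and both lie on its plus strand, yet they moved in opposite directions. CR2, a complement receptor gene of the same cluster, had 1.68 CPM in DOX-positive cells and 1.48 CPM in DOX-negative cells, and it was not called (log2 fold change 0.18, edgeR adjusted p = 0.270). CD59 lies on chromosome 11 (33703010 to 33736491, minus strand).

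Per kilobase, the make-up of the inhibitor RNA changed with its amount. In DOX-positive cells the order was CD55 (34.8 ± 0.752 RPKM), CD46 (26.7 ± 0.785) and CD59 (23.7 ± 0.577), and in DOX-negative cells it was CD46 (34.4 ± 1.38 RPKM), CD55 (20.9 ± 0.878) and CD59 (9.62 ± 0.323; SD, n = 3 each). No neighbours in either order overlapped. In CPM, without length, CD59 was instead the highest of the 3 in every DOX-positive library, so its last place there rests on its deposited length. CD46 made up 31.3% ± 0.491 of the 3 genes' summed RPKM in DOX-positive cells and 52.9% ± 0.779 in DOX-negative cells. CD59 made up 27.9% ± 0.524 in DOX-positive cells and 14.8% ± 0.607 in DOX-negative cells. The sum itself was 83.1, 86.4 and 86.1 RPKM in DOX-positive libraries, against 65.2, 62.9 and 66.7 RPKM in DOX-negative libraries. The deposited gene lengths cover 10569 bases for CD59 and 8708 for CD46, and transcripts shorter than that would make RPKM too low.

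**Figure D2:**
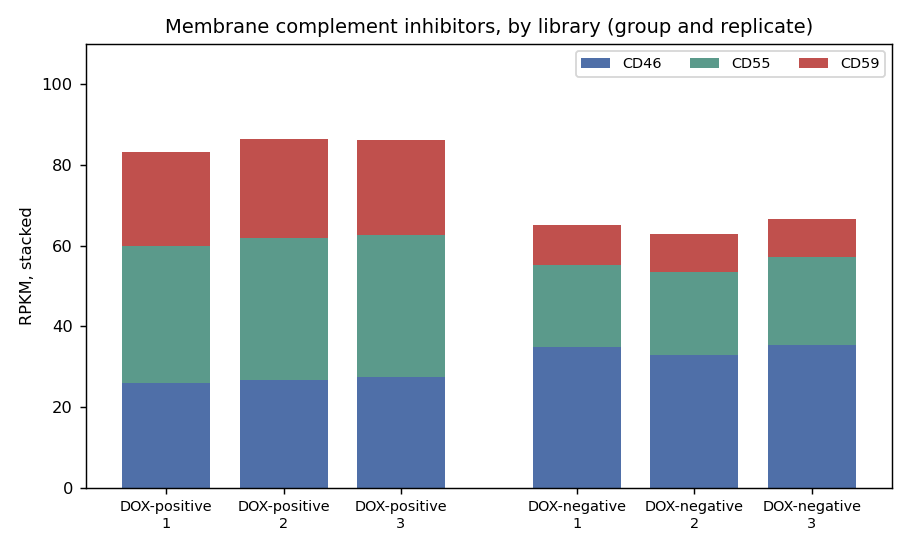
Stacked bars give RPKM of CD46, CD55 and CD59 in each library, from 0, with the 3 DOX-positive libraries on the left and the 3 DOX-negative libraries on the right. The stacks reach 83.1 to 86.4 RPKM in DOX-positive cells and 62.9 to 66.7 RPKM in DOX-negative cells, and the CD46 share is smaller in DOX-positive cells.

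Among the produced components, C1RL had the highest level per length, at 9.14 ± 0.258 RPKM in DOX-positive cells and 12.3 ± 0.383 RPKM in DOX-negative cells. C1S and C1R came next. Their ranges overlapped in DOX-positive cells, at 2.26 ± 0.0942 RPKM for C1S and 2.28 ± 0.192 for C1R, whereas in DOX-negative cells C1S, at 8.77 ± 0.358 RPKM, lay above C1R, at 6.94 ± 0.127. C3 followed with 0.982 ± 0.0456 RPKM in DOX-positive cells and 2.68 ± 0.0936 in DOX-negative cells, then CFB with 0.210 ± 0.0297 in DOX-positive cells and 0.859 ± 0.0504 in DOX-negative cells. Summed RPKM of the 3 membrane inhibitors was 5.73 ± 0.228 times that of the 6 produced components in DOX-positive cells and 2.05 ± 0.0497 times in DOX-negative cells (SD, n = 3 each). The produced sum was 14.9 RPKM in DOX-positive cells and 31.6 RPKM in DOX-negative cells. Its largest part in both groups was C1RL, the produced component that changed least. These ratios also rest on the deposited gene lengths.

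Ratios between 2 genes within a library do not depend on how libraries are scaled. CD59 over CD46, per kilobase, was 0.902, 0.914 and 0.856 in DOX-positive libraries, against 0.286, 0.287 and 0.267 in DOX-negative libraries, a 3.18-fold difference. CD55 over CD46 was 1.31, 1.32 and 1.28 in DOX-positive libraries, against 0.577, 0.631 and 0.620 in DOX-negative libraries. Per kilobase, CD55 was thus above CD46 in every DOX-positive library and below it in every DOX-negative library. That order rests on the deposited lengths of 5908 bases for CD55 and 8708 for CD46, and in CPM, without length, CD46 was the higher of the pair in all 6 libraries. The difference between the groups does not depend on the lengths. C1R over C1RL was 0.245, 0.238 and 0.265 in DOX-positive libraries, against 0.593, 0.548 and 0.550 in DOX-negative libraries. C1S over C1R was 0.997, 1.04 and 0.951 in DOX-positive libraries, against 1.24, 1.21 and 1.34 in DOX-negative libraries. Groups did not overlap for any of the 7 ratios computed, but these were chosen after values were seen. Taken singly, 62.4% of all genes tested had groups that did not overlap, and no such share was computed for pairs of genes. Moreover, 3 libraries against 3 cannot give a two-sided exact permutation p below 0.1.

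**Figure D3:**
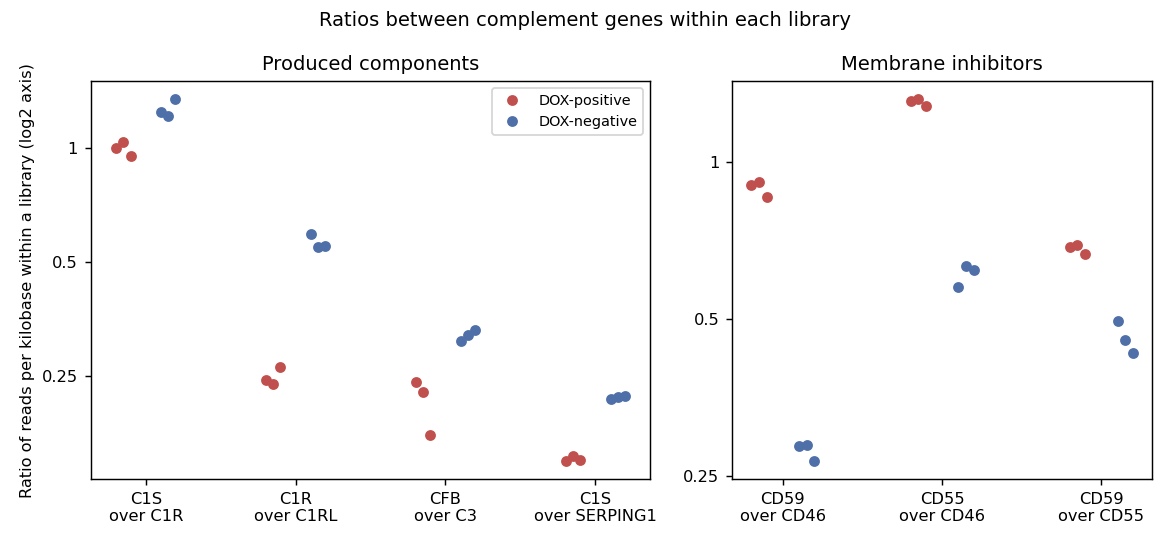
Points give the ratio of reads per kilobase of 2 genes in each library on a log2 axis, with DOX-positive libraries left of DOX-negative libraries in each pair, for produced components (left panel) and membrane inhibitors (right panel). The groups are apart for all 7 ratios, lower in DOX-positive cells in the left panel and higher in the right panel. That direction follows from the gene put on top, which had the lower log2 fold change of its pair on the left and the higher on the right.

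The rest of the pathway was read from a list of 50 complement genes outside the 9. Of these, 11 had no reads in any library, 25 passed the filter, 14 fell and 2 rose, against 28.9% lower and 27.6% higher over all tested genes, and 9 were not called. Recognition molecules were nearly silent. C1QA, C1QB, C1QC, MBL2, FCN1 and FCN2 had 0 reads in all 6 libraries, and of this group of 9 only COLEC10 was tested, without a call. Of the 7 terminal components 2 were tested, C5, the precursor of the anaphylatoxin C5a, and C8G. C5 fell 1.89-fold, to 9.81 ± 0.393 CPM in DOX-positive cells, against 18.6 ± 0.522 CPM in DOX-negative cells (edgeR adjusted p = 2.31e-10). C8G had a log2 fold change of -0.58 (edgeR adjusted p = 0.0853).

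C4 and the alternative pathway protease factor D were lower as well. C4A had 0.287 ± 0.0860 CPM in DOX-positive cells and 2.06 ± 0.260 CPM in DOX-negative cells, and C4B had 0.333 ± 0.0861 CPM in DOX-positive cells and 2.38 ± 0.310 CPM in DOX-negative cells. Their log2 fold changes were -2.88 and -2.87 (SE 0.22 and 0.20, edgeR adjusted p = 7.06e-09 and 2.92e-09), but the genes are near-identical copies and their separate values are uncertain. CFD, which cleaves factor B, fell 1.72-fold, to 1.84 ± 0.0957 CPM in DOX-positive cells, against 3.15 ± 0.393 CPM in DOX-negative cells (edgeR adjusted p = 5.34e-05).

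Secreted regulators were lower too. Of 13 soluble regulators 7 were tested, and 6 fell, 5 of them at least 2-fold, and 0 rose, against 28.9% of all tested genes lower and 9.38% lower by at least 2-fold. SERPING1, the C1 inhibitor that inactivates C1r and C1s, had 51.0, 49.2 and 54.2 CPM in DOX-positive libraries, against 138.2, 131.5 and 142.0 CPM in DOX-negative libraries. It fell 2.67-fold (log2 fold change -1.41, SE 0.04, edgeR adjusted p = 4.56e-14). C1S over SERPING1, per kilobase, was 0.149, 0.155 and 0.151 in DOX-positive libraries, against 0.219, 0.221 and 0.222 in DOX-negative libraries, so C1S fell further than its inhibitor in these libraries. CLU, clusterin, which binds the terminal complex, fell 2.63-fold, to 103.8 ± 2.75 CPM in DOX-positive cells, against 273.4 ± 3.92 CPM in DOX-negative cells (edgeR adjusted p = 5.71e-15). VTN, vitronectin, which also binds the terminal complex, was below 1 CPM in both groups, at 0.159 ± 0.0427 CPM in DOX-positive cells and 0.992 ± 0.0647 CPM in DOX-negative cells (log2 fold change -2.61, SE 0.25, edgeR adjusted p = 1.19e-07).

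**Figure D4:**
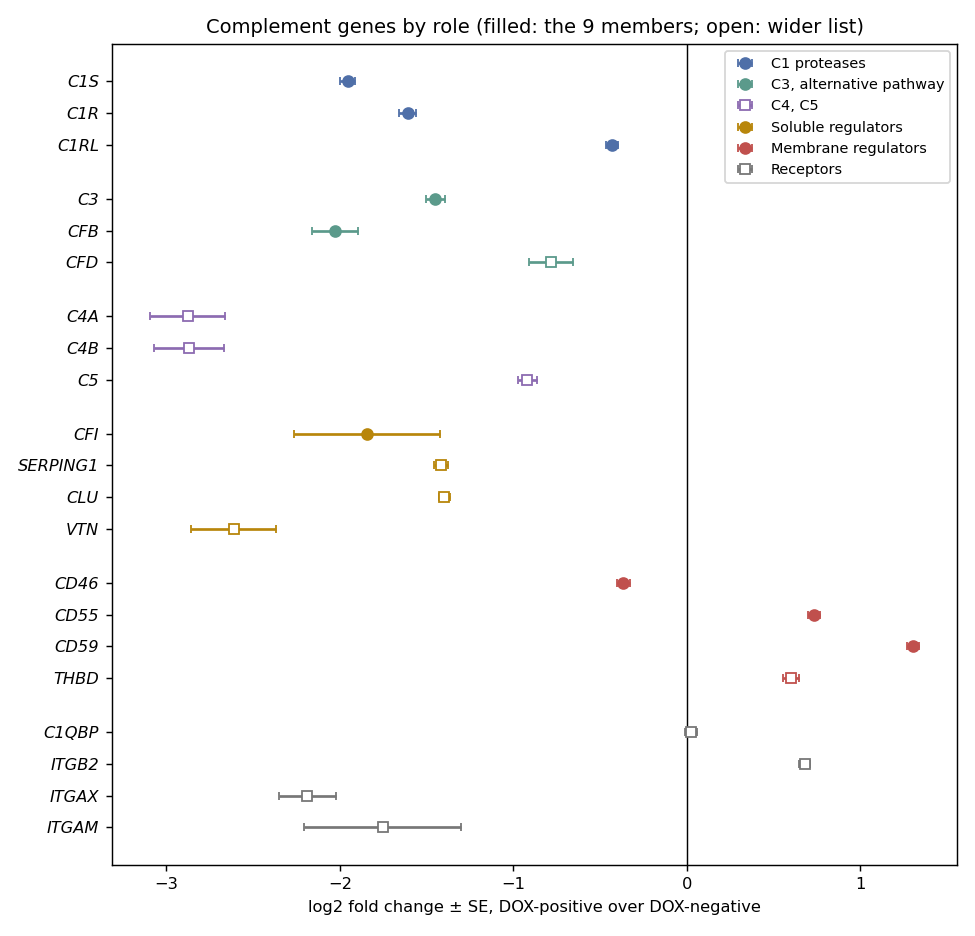
Points give the edgeR log2 fold change of DOX-positive over DOX-negative cells with its SE, by role, filled for the 9 genes chosen by name and open for named genes of the wider list. Secreted components and secreted regulators lie left of 0, and CD55, CD59, THBD and ITGB2 lie right of it.

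Of 4 membrane regulators outside the 9 genes 2 were tested and 1 was called, against 56.5% of all tested genes. THBD, thrombomodulin, which promotes C3b inactivation besides its anticoagulant role, rose 1.52-fold, to 19.8 ± 0.145 CPM in DOX-positive cells, against 13.1 ± 0.219 CPM in DOX-negative cells (edgeR adjusted p = 8.19e-09). SUSD4, a sushi domain inhibitor of C3 convertase formation, had 2.24 CPM in both groups (edgeR adjusted p = 0.999).

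Of 10 receptor genes 7 were tested, and 2 fell and 1 rose, against 28.9% of all tested genes lower and 27.6% higher, so the count lower was near that of all genes. ITGB2, the beta chain of the complement receptors CR3 and CR4, rose 1.60-fold, to 68.9 ± 0.609 CPM in DOX-positive cells, against 43.0 ± 0.930 CPM in DOX-negative cells (edgeR adjusted p = 1.36e-11). Its complement-binding partners were far less abundant. ITGAX had 0.480 ± 0.0129 CPM in DOX-positive cells and 2.18 ± 0.214 CPM in DOX-negative cells (log2 fold change -2.19, edgeR adjusted p = 6.46e-09), and ITGAM had 4 to 10 reads in DOX-positive libraries and 15 to 30 reads in DOX-negative libraries. ITGAM passed the filter only through the DOX-negative group. The 5 leukocyte markers summed to 0.163 to 0.221 RPKM in DOX-positive cells and 0.599 to 0.675 RPKM in DOX-negative cells, mostly from CD14, which had a log2 fold change of -1.84. CD3E had 0 reads and PTPRC, the pan-leukocyte marker, read 0.0303 CPM in DOX-positive cells and 0.00728 CPM in DOX-negative cells. The part of leukocyte RNA in the receptor values was not tested. C1QBP, a C1q-binding protein found mainly in mitochondria, was at 177.9 ± 5.96 CPM in DOX-positive cells and 175.0 ± 2.43 CPM in DOX-negative cells. Its log2 fold change of 0.02 turned negative under 3 alternatives, reaching -0.12 with library size alone.

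The genes whose profiles lay closest to 3 of the 9 were found by the root mean square distance between centred log2 CPM values over the 6 libraries, among 10758 protein-coding genes with a mean of at least 1 RPKM. The profile depends mostly on the difference between the groups. For C1S they were CD38, DDX60, GLCE, MAP2 and CD74, at distances of 0.047 to 0.062. For C3 they were SERPING1, ADPGK, UBA7, OAS1 and HDAC4, at 0.021 to 0.042, and SERPING1 was the closest. For CD59 they were GPR176, MITF, LTBP1, MAP2K3 and LIPH, at 0.035 to 0.041.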

How the data were processed

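RNA of 6 DU-145 cultures was sequenced as polyadenylated, stranded libraries, per the labels' protocols. The deposited table gives whole-number read counts per gene, not normalized, and a gene length in bases. Per the submitters' processing notes, which give no roles, the build was GRCh38.p7 and the tools were STAR 2.7.9a, CASAVA 1.8.2 and DESeq2 1.24.0. How reads were counted, with which annotation and strand setting, is not stated, so overlapping, antisense and near-identical genes are uncertain. Rows without a symbol (66 genes) held 0.000516% of reads.

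Groups came from sample titles. Genes were tested with edgeR 4.0.16 (quasi-likelihood, R 4.3.3), with no term but group, TMM scaling and the filterByExpr defaults (minimum count 10, total 15). This left 24695 genes, over which Benjamini-Hochberg adjustment was made, and an adjusted p under 0.05 was a call. Fold changes are DOX-positive over DOX-negative, and SE is the size of the log2 fold change over the root of F. CPM and RPKM use TMM-scaled library sizes and the deposited length. Positions are from GENCODE 29 (GRCh38), whose gene versions differ from the table's for some genes. Figures were drawn with matplotlib 3.10.9.

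Libraries of 1 group differed by more than sampling noise (chi-square per degree of freedom 6.40 to 20.8). The labels speak of triplicate cultures only, so the spread behind each p-value may be technical. Floors of 3 reads cover counting error only. The members and lists were chosen with earlier results of these data known, and the ratios, sums and neighbour counts after values were seen. From the wider list, genes with a mean of at least 1 RPKM, or called with at least 2-fold change, were to be named, and other genes named with values were chosen after their values were seen. Of the genes this rule names, 2 are counted but not reported here. The fits were tested on simulated data. Alternatives were upper-quartile scaling, DESeq2 size factors, scaling by library size alone, 2 other filters, DESeq2 1.42.0, limma-voom (limma 3.58.1), the replicate block and each library left out.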

Additional observations from a re-analysis of the deposited data

How the results depend on the processing

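All 9 complement genes kept their direction and their call in each of the 14 alternative fits that gave them a value. CFI has no value where genes had to reach 1 CPM in 3 libraries, which removed it and left 6 of the genes called lower. Leaving out 1 library at a time gave log2 fold changes of -1.99 to -1.90 for C1S, -0.45 to -0.41 for C1RL, -2.12 to -1.64 for CFI, -0.40 to -0.33 for CD46, 0.72 to 0.79 for CD55 and 1.29 to 1.35 for CD59. With library size alone the median of all genes shifted by -0.14 on the log2 scale and the fold changes moved with it, to -0.51 for CD46, -0.58 for C1RL, 0.59 for CD55 and 1.16 for CD59. Of 18 mean RPKM values, 13 moved by more than 1 SD under that scaling. C1QBP, not called in the main result, reversed to -0.036 with upper-quartile scaling, -0.12 with library size alone (edgeR adjusted p = 0.00252) and -0.013 with the stricter filter on CPM, in a range of adjusted p from 0.00252 to 0.845. Deviations of same-numbered libraries from their group means were nearly uncorrelated (-0.07, -0.03 and 0.01). With 3 libraries per group this cannot show whether the numbers pair them. Replicate 2 had the most reads and replicate 3 the fewest in each group. The replicate block gave 13503 calls against 13957 without it and changed no call among the 9 genes, with CD59 at 1.30 and CFI at -1.83. Depth limits CFI and ITGAM, and isoforms cannot be resolved from gene counts.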
